A study of Mus musculus with 20 samples.

Results

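Matrix metalloproteinases (MMPs) are zinc-dependent proteases that cleave collagens and other proteins of the extracellular matrix, and tissue inhibitors of metalloproteinases (TIMPs) are secreted proteins that bind their active site. The 10 genes described here are the MMP genes Mmp2, Mmp3, Mmp9, Mmp12, Mmp13, Mmp14 and Mmp19 and the inhibitor genes Timp1, Timp2 and Timp3, taken by gene name from the 54532 genes of 2 deposited count tables. They were compared between liver tissue with growing metastases, which holds tumor cells, stroma and liver, and macrophages isolated from such metastases.

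The mice were WT C57BL/6, 6 to 8 weeks old, and their colorectal liver metastases (CRLM) grew from 1000000 Mc38 cells, a colon adenocarcinoma line of the same strain. Tissue groups were normal liver after saline at day 0 (con, 2 libraries), tumor-free liver remote from tumor at 12 days post injection (dpi; L-con, 1), low-content tumor at 9 dpi (Lt, 2), medium-content tumor at 9 dpi (Mt3, 2) and at 11 dpi (Mt2 and Mt1, 2 each), and high-content tumor at 12 dpi (Ht, 3). Ht libraries 1 and 3 came from identical material per the methods and were summed into Ht 1, so Ht is treated as 2 samples, although by counts libraries 2 and 3 were the closest, and if those were the repeat the 2 Ht samples would share material. F4/80+TAM and CD11b+TAM, 3 libraries each, are F4/80+ and CD11b+ cells taken from Mt2 metastases with microbeads at 11 dpi. The study named them tumor-associated macrophages (TAM), while the labels give only the marker used to isolate them. The 14 tissue libraries held 16032085 to 18246623 counted reads (median 16961026) and the 6 libraries of isolated cells 17785496 to 20548370 (median 18097652). Levels are counts per 1000000 (CPM) after scaling by trimmed mean of M values (TMM) over the 19 samples, and the floor of detection is taken as 3 counts, which equal 0.146 to 0.187 per 1000000 counts of a library before that scaling. Fold changes are log2 values with a standard error (SE) from edgeR's quasi-likelihood test, adjusted by Benjamini-Hochberg over all genes tested, and a gene counts as called with an adjusted p up to 0.05 and a fold of 2 or more either way (log2 value of 1), the limits the study set. The p-values measure spread between samples, since the labels do not say that replicates come from separate animals, and the methods name 2 livers per tissue group. An effect called in 1 comparison and not in another is not thereby shown to differ between them.

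The gelatinases Mmp2 and Mmp9 degrade denatured collagen and basement membrane collagen. Mmp3 (stromelysin) cleaves proteoglycans and activates other MMPs, Mmp12 is the macrophage elastase, Mmp13 is the interstitial collagenase of mice, Mmp14 is anchored in the membrane and activates pro-Mmp2, and Mmp19 cleaves basement membrane proteins. Timp1 binds pro-Mmp9, Timp2 bridges Mmp14 and pro-Mmp2, and Timp3 binds to matrix and also inhibits ADAM proteases. MMPs in tumors can be made by tumor cells, fibroblasts, endothelial cells, neutrophils and macrophages, and bulk levels add up all of these.

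Per kilobase (kb) of exon length, the scale used here to compare different genes, the most abundant members in normal liver were Mmp19 and Mmp14, at mean CPM per kb of 18.8 and 10.5, while Mmp3 stood at 1 and 0 counts. In Ht tissue Timp2 (75.6), Mmp14 (54.5) and Mmp9 (48.8) led on that scale. Mmp19 went from 66.3 ± 11.0 (SD, n = 2) CPM in con to 9.00 ± 1.19 (SD, n = 2) in Ht. Both isolated populations carried Mmp14 and Timp2 above both con libraries, whereas Mmp3, Timp1 and Timp3 were far lower in them than in metastases. By fold, Mmp9 was the member in which the populations were furthest apart, with 32.2 ± 17.9 (SD, n = 3) in F4/80+TAM and 189 ± 59.0 (SD, n = 3) in CD11b+TAM. Samples were isolated cells or whole tissue and sat in 1 count table or the other accordingly, so effects of table and of kind of sample cannot be told apart in the comparisons between them.

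**Figure D1:**
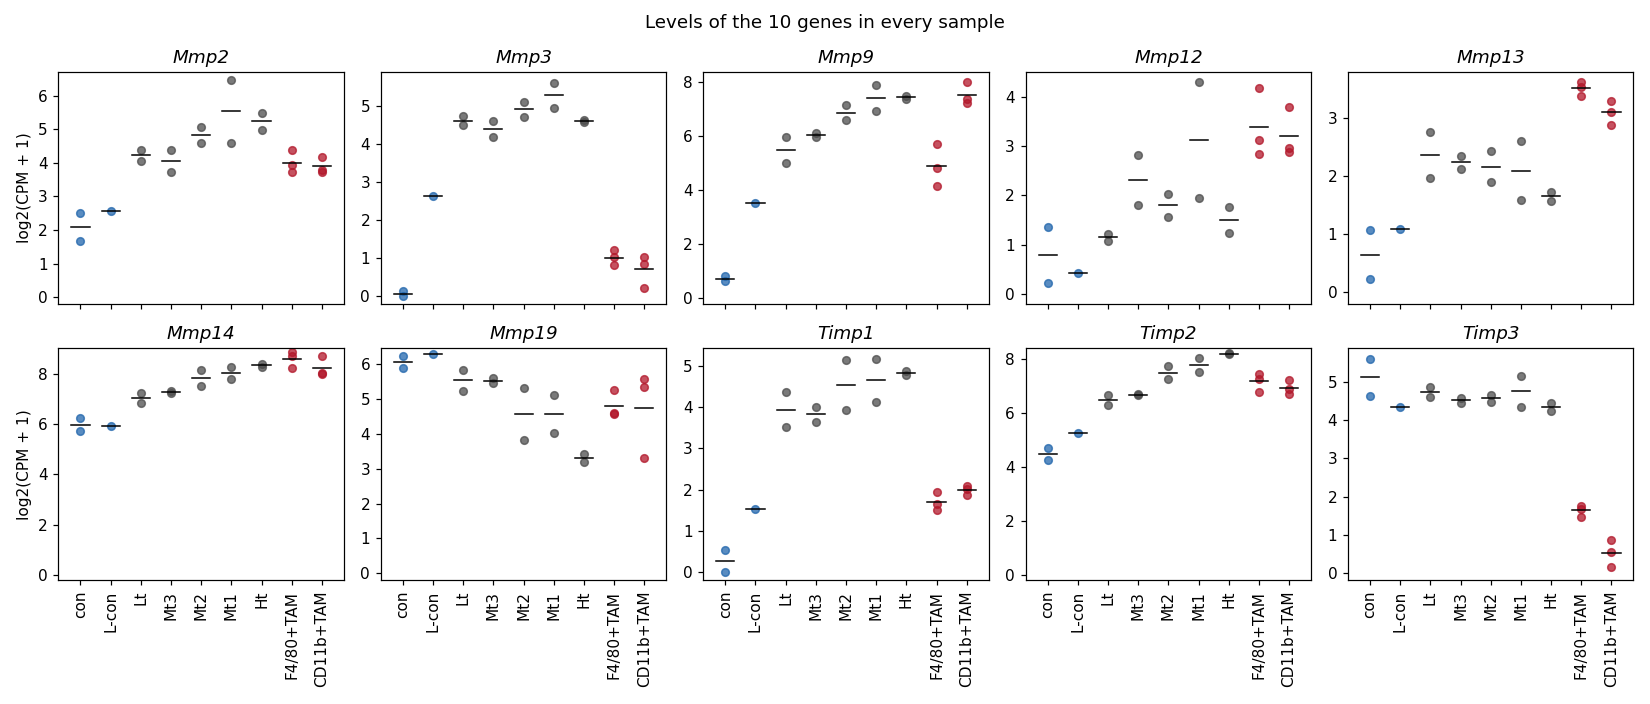
Level of each of the 10 members in every sample, as log2(CPM + 1), by group. Bars mark group means.

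Mmp9 (ENSMUSG00000017737) lies at chr2:164940780-164955850 on the forward strand of GRCm38. Its CPM were: con 0.549 and 0.776, L-con 10.5, Lt 30.8 and 62.5, Mt3 68.0 and 62.5, Mt2 95.01 and 140.4, Mt1 122 and 234, Ht 166 and 179. The isolated cells read F4/80+TAM 17.0, 27.7 and 51.9 and CD11b+TAM 164, 257 and 147. Each metastasis sample stood above each con library, each Ht library above each Lt library, and each CD11b+TAM library above each F4/80+TAM library. By group mean the order was CD11b+TAM, Mt1, Ht, Mt2, Mt3, Lt, F4/80+TAM, L-con, con, where the neighbours CD11b+TAM and Mt1, Mt1 and Ht, Mt3 and Lt, and Lt and F4/80+TAM did not differ beyond their spread. From con to Lt Mmp9 rose by log2 fold change 6.13 (SE 0.53, adjusted p = 0.00122), and without Lt 2 the value was 5.52. From Lt to Ht it rose further, log2 fold change 1.87 (SE 0.39, adjusted p = 0.00602), or 2.48 without Lt 2, and the sum of both steps, con to Ht, came to log2 fold change 7.99 (SE 0.56, adjusted p = 9.0e-05). These 3 comparisons share their samples and are not independent. F4/80+TAM held less Mmp9 than Mt2 tissue, log2 fold change -1.87 (SE 0.42, adjusted p = 0.00171), and less than Ht tissue, log2 fold change -2.42 (SE 0.42, adjusted p = 2.7e-04). CD11b+TAM were not called apart from Mt2, log2 fold change 0.69 (SE 0.43, adjusted p = 0.188), nor from Ht, log2 fold change 0.13 (SE 0.42, adjusted p = 0.811), where scaling to total counts turned the sign to -0.32. Between the populations the difference did not pass the threshold in the fit used, log2 fold change -2.61 (SE 0.42, adjusted p = 0.0666), although the groups did not overlap. Without CD11b+TAM 3 the same Mmp9 difference was -2.75 with adjusted p = 0.0332, and DESeq2 (adjusted p = 7.8e-08), no filter (2.9e-04), the replicate block (0.0345) and the joint fit (0.00635) also called it. Without each of the other libraries Mmp9 was not called, with adjusted p from 0.0582 to 0.307, and under total-count scaling adjusted p was 0.107.

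The neutrophil marker sum, like Mmp9, was higher in each CD11b+TAM than in each F4/80+TAM library, although 0 of 9 markers were called between the populations, beside 0.00701% of all genes higher in F4/80+TAM and 0.0701% lower. The 9 genes summed to 162, 264 and 648 in F4/80+TAM and 1543, 1051 and 4729.7 in CD11b+TAM, led by Csf3r or S100a9, and to 2.85 to 57.2 CPM in tissue, led by Csf3r, where Ly6g was at or under the floor in most libraries. Of the 9, 9 were called higher and 0 lower in CD11b+TAM against Ht, and 7 and 0 in F4/80+TAM against Ht, beside 18.8% of all genes higher and 22.4% lower in CD11b+TAM and 18.5% and 21.1% in F4/80+TAM. Within F4/80+TAM Mmp9 and the marker sum ran in the same order, both lowest in library 1 and highest in library 3. Within CD11b+TAM they ran opposite, since library 2 had the highest Mmp9 and the lowest marker sum and library 3 the lowest Mmp9 and the highest sum. Of 8 neutrophil markers tested in tissue 4 were called higher and 0 lower from con to Lt, beside 12.4% and 0.256% of all genes, 0 and 1 from Lt to Ht, beside 11.7% and 20.2%, and 3 and 0 from con to Ht, beside 25.8% and 24.1%. In bulk RNA fewer cells of a type and less RNA per cell cannot be told apart, and which cells in the CD11b+ isolate carry Mmp9 was not tested.

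Mmp2 (ENSMUSG00000031740), chr8:92827291-92853420 on the forward strand, was measured at CPM of con 2.20 and 4.74, L-con 4.92, Lt 19.7 and 15.8, Mt3 12.3 and 19.8, Mt2 23.0 and 32.6, Mt1 23.3 and 87.8, Ht 43.9 and 30.8. In the isolated cells its levels read F4/80+TAM 19.7, 14.2 and 12.2 and CD11b+TAM 12.3, 17.1 and 12.9. Every metastasis sample exceeded both con libraries, Mt1 held the widest spread, and the populations overlapped each other and Lt. The group means ran Mt1, Ht, Mt2, Lt, Mt3, F4/80+TAM, CD11b+TAM, L-con, con, with neighbours overlapping from Mt1 to Mt2 and from Lt to CD11b+TAM. Mmp2 rose from con to Lt by log2 fold change 2.35 (SE 0.62, adjusted p = 0.0357). That call depended on each library: Mmp2 had adjusted p = 0.197 without con 1, 0.0980 without con 2 (log2 fold change 2.997), 0.102 without Lt 1, 0.105 without Lt 2 and 0.0514 with at least 10 counts in every library. From Lt to Ht it was not called in the fit used, log2 fold change 1.06 (SE 0.55, adjusted p = 0.148), but was called under total-count scaling (Mmp2 1.97, adjusted p = 0.0284), with no filter (1.18, adjusted p = 1.9e-05) and in the fit of only the groups compared (1.09, adjusted p = 0.0128). From con to Ht Mmp2 rose by log2 fold change 3.41 (SE 0.63, adjusted p = 0.00140), 4.06 without con 2. Against Ht tissue Mmp2 was lower in F4/80+TAM, log2 fold change -1.28 (SE 0.43, adjusted p = 0.0227), a call lost without Ht 1 (adjusted p = 0.177), F4/80+TAM 2 (0.0706) or F4/80+TAM 3 (0.0851). In CD11b+TAM it was lower than in Ht by log2 fold change -1.41 (SE 0.43, adjusted p = 0.0135), lost without Ht 1 (adjusted p = 0.119). Against Mt2 neither population was called for Mmp2, with log2 fold change -0.86 (SE 0.44, adjusted p = 0.110) for F4/80+TAM and -0.98 (SE 0.44, adjusted p = 0.0684) for CD11b+TAM. F4/80+TAM and CD11b+TAM lay close together in Mmp2, log2 fold change 0.07 (SE 0.23, adjusted p = 0.889).

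Mmp3 (ENSMUSG00000043613) is placed at chr9:7445822-7455975 on the forward strand, inside a cluster of MMP genes that also holds Mmp12 and Mmp13. Its CPM in tissue were: con 0.0915 and 0, L-con 5.18, Lt 21.7 and 25.5, Mt3 17.2 and 23.5, Mt2 25.3 and 33.7, Mt1 29.9 and 48.1, Ht 24.0 and 22.8. Isolated cells read F4/80+TAM 0.758, 1.33 and 1.04 and CD11b+TAM 1.04, 0.169 and 0.812. Mmp3 was high in every metastasis sample, intermediate in L-con, low in both populations and at 1 and 0 counts in con, with no overlap between these tiers. In the falling order Mt1, Mt2, Lt, Ht, Mt3 neighbours did not differ beyond their spread, and F4/80+TAM overlapped CD11b+TAM. Without overlap Mt1 lay above Lt, Ht and Mt3, and Mt2 above Ht and Mt3. By counts the ratio of Lt to con was 535 (95% interval of counting error 95.6 to 21148) and that of Ht to con 531 (95.2 to 20988). In the test Mmp3 rose from con to Lt by log2 fold change 8.86 (SE 0.58, adjusted p = 7.8e-04), or 7.90 without con 2. It rose from con to Ht by log2 fold change 8.83 (SE 0.57, adjusted p = 9.0e-05), or 7.88 without con 2. Without con 1 the Mmp3 calls were kept (adjusted p = 0.0149 and 0.00144), but con then holds 0 counts and the fitted fold is set by the prior of the fit, so it is not given. Between Lt and Ht Mmp3 was not called, log2 fold change -0.04 (SE 0.28, adjusted p = 0.929), and scaling to total counts turned this sign to 0.85. Against Mt2 tissue it was lower in F4/80+TAM by log2 fold change -4.82 (SE 0.43, adjusted p = 5.5e-07). The drop in CD11b+TAM against Mt2 was log2 fold change -5.47 (SE 0.45, adjusted p = 2.3e-07). Against Ht the values for Mmp3 were -4.48 (SE 0.42, adjusted p = 1.6e-06) in F4/80+TAM and -5.14 (SE 0.44, adjusted p = 5.5e-07) in CD11b+TAM. The populations were not called apart in Mmp3, log2 fold change 0.59 (SE 0.61, adjusted p = 0.666).

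Most fibroblast markers were called in the same direction as Mmp3, Mmp2 and Timp1 from con to Lt and all of them in isolated cells against Ht. Their 10 genes summed to CPM of con 417 and 297, L-con 696, Lt 1643 and 3163, Mt3 2387 and 2816, Mt2 3518 and 5697, Mt1 3667 and 7253, Ht 7323 and 6477, led by Dcn in con and L-con and by Col3a1 elsewhere, with Fap at or under the floor in con. The isolated cells had sums of 365, 422 and 557 in F4/80+TAM and 330.2, 216 and 174 in CD11b+TAM. Of these 10 markers 7 were called higher and 0 lower from con to Lt, 5 and 0 from Lt to Ht, 9 and 0 from con to Ht, and 0 higher and 10 lower in either population against Ht. The shares of all genes higher were 12.4%, 11.7% and 25.8% in these tissue steps and lower 0.256%, 20.2% and 24.1%, and against Ht 18.5% were higher and 21.1% lower in F4/80+TAM and 18.8% and 22.4% in CD11b+TAM. From Lt to Ht, where 5 fibroblast markers were called higher, Mmp3, Mmp2 and Timp1 were not called in the fit used. Tumor cell markers ran partly alike. Of 8 tested, 4 were called higher and 0 lower from con to Lt. Against Ht 0 were higher and 8 lower in F4/80+TAM and 0 and 6 in CD11b+TAM, beside the same shares. Lgals7, Stra6 and Grem1 entered that list from earlier results of these data, so its higher count is not set against all genes. Which cells of the metastases carry Mmp3 was not tested.

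Mmp12 (ENSMUSG00000049723), chr9:7344381-7369499 on the forward strand, shares exon bases with Mmp1b on the opposite strand. Its CPM were: con 1.56 and 0.172, L-con 0.346, Lt 1.12 and 1.33, Mt3 6.03 and 2.49, Mt2 1.95 and 3.09, Mt1 2.85 and 18.7, Ht 1.35 and 2.42. F4/80+TAM and CD11b+TAM libraries had 17.2, 7.76 and 6.11 and 6.31, 12.9 and 6.79. Mmp12 was low in tissue apart from Mt1 2 and Mt3 1, and both populations lay above both Mt2 and both Ht samples. The order of means was Mt1, F4/80+TAM, CD11b+TAM, Mt3, Mt2, Ht, Lt, con, L-con, and no neighbours differed beyond their spread. Mmp12 was not called from con to Lt, log2 fold change 0.52 (SE 1.10, adjusted p = 0.772), from Lt to Ht, 0.58 (SE 0.96, adjusted p = 0.648), or from con to Ht, 1.10 (SE 1.03, adjusted p = 0.369). Without con 1 and without con 2 the Mmp12 values were 2.79 and -0.35 from con to Lt and 3.37 and 0.24 from con to Ht, none called. Those without con 1 are folds over con 2 alone, at 2 counts and under the floor. With no filter con to Ht was called (1.22, adjusted p = 0.0410). In F4/80+TAM it was higher than in Mt2 by log2 fold change 2.02 (SE 0.78, adjusted p = 0.0400), a call lost without Mt2 1 (adjusted p = 0.177), Mt2 2 (0.0800) or F4/80+TAM 1 (0.144) or under total-count scaling (0.0584). Against Ht F4/80+TAM were higher in Mmp12 by log2 fold change 2.47 (SE 0.79, adjusted p = 0.0169), lost without Ht 1 (adjusted p = 0.127), F4/80+TAM 1 (0.0649) or under total-count scaling (0.0508). CD11b+TAM were higher than Ht by log2 fold change 2.22 (SE 0.78, adjusted p = 0.0266), lost without Ht 1 (adjusted p = 0.166), Ht 2 (0.0627) or CD11b+TAM 2 (0.0754) or under total-count scaling (0.0830). Against Mt2 CD11b+TAM were not called for Mmp12 in the fit used, log2 fold change 1.77 (SE 0.77, adjusted p = 0.0645), but were by DESeq2 (adjusted p = 0.0346), with no filter (1.6e-05) and in the fit of only the groups compared (0.0219), and between the populations the value was 0.20 (SE 0.44, adjusted p = 0.837).

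Mmp13 (ENSMUSG00000050578) sits at chr9:7272514-7283331 on the forward strand. CPM of Mmp13 were: con 1.10 and 0.172, L-con 1.12, Lt 2.91 and 5.80, Mt3 3.37 and 4.12, Mt2 2.73 and 4.40, Mt1 2.00 and 5.12, Ht 2.33 and 1.98. The cells read F4/80+TAM 9.39, 11.4 and 10.7 and CD11b+TAM 7.64, 6.43 and 8.88. Mmp13 was highest in F4/80+TAM, then in CD11b+TAM with no overlap, and every isolated library exceeded every tissue sample. Below them in falling order stood Lt, Mt3, Mt2, Mt1 and Ht, with neighbours not differing beyond their spread although Ht lay under Lt, Mt3 and Mt2 without overlap, and then L-con and con. In con Mmp13 had 12 and 2 counts, the latter under the floor. By counts the ratio of Lt to con was 7.14 (95% counting interval 4.10 to 13.4). Without con 1 the log2 fold change from con to Lt was 4.61, set against the 2 counts of con 2. With all libraries Mmp13 rose from con to Lt by log2 fold change 2.79 (SE 0.75, adjusted p = 0.0374). That call was lost without con 2 (log2 fold change 1.97, adjusted p = 0.184), without Lt 2 (2.20, adjusted p = 0.221) and in the fit of only the groups compared (adjusted p = 0.0548) and with crossed replicate numbers (0.0576). From con to Ht it was not called in the fit used, log2 fold change 1.75 (SE 0.74, adjusted p = 0.0634), with 0.95 without con 2. Without con 1 the value was 3.59, again set against 2 counts. By counts the ratio of Ht to con was 3.55 (95% counting interval 2.06 to 6.63). Mmp13 was called from con to Ht by DESeq2 (adjusted p = 0.0279), under total-count scaling (0.0115), with no filter (0.00177), in the joint fit (0.0237) and with 3 Ht libraries (0.0364). The Mmp13 value from Lt to Ht was -1.04 (SE 0.63, adjusted p = 0.203), or -0.44 without Lt 2. F4/80+TAM held more Mmp13 than Mt2 tissue, log2 fold change 1.54 (SE 0.47, adjusted p = 0.0126), lost without Mt2 1 (adjusted p = 0.0989). They also held more than Ht tissue, log2 fold change 2.28 (SE 0.48, adjusted p = 0.00128). CD11b+TAM were higher than Ht by log2 fold change 1.82 (SE 0.48, adjusted p = 0.00512), lost under total-count scaling (adjusted p = 0.0571). Against Mt2 they were not called for Mmp13 in the fit used, log2 fold change 1.09 (SE 0.47, adjusted p = 0.0594), but were by DESeq2 (adjusted p = 0.0252) and with no filter (0.0108). Between the populations it was not called, log2 fold change 0.40 (SE 0.20, adjusted p = 0.490).

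The macrophage markers were higher in the same cells as Mmp12 and Mmp13. Their 8 genes, led by C1qb in most metastases and cells and by Mrc1 in con, summed to CPM of con 640.1 and 427, L-con 987, Lt 965 and 1357, Mt3 975 and 1299, Mt2 1326 and 1763, Mt1 1808 and 1627, Ht 2176 and 2181. In isolated cells the sums were 15469, 14275 and 13866 in F4/80+TAM and 13669, 12375 and 19278 in CD11b+TAM, and 8 of 8 were called higher and 0 lower in each population against Ht, beside 18.5% and 21.1% of all genes in F4/80+TAM and 18.8% and 22.4% in CD11b+TAM. Of the 8, 4 were called higher and 0 lower from con to Lt, from Lt to Ht 2 and 0, and from con to Ht 6 and 0, where all genes stood at 12.4% and 0.256%, 11.7% and 20.2%, and 25.8% and 24.1%. Mmp12 and Mmp13 were not called from con to Ht in the fit used. Higher levels in the isolated cells were not particular to macrophage markers. Against Ht 5 of 6 monocyte markers were called higher and 1 lower in each population. Of 6 dendritic cell markers 1 was higher and 1 lower in F4/80+TAM and 4 and 0 in CD11b+TAM. Most neutrophil markers were higher in both, as given above. The 5 Kupffer cell markers, led by Clec4f in con and F4/80+TAM and by Cd5l elsewhere, summed to con 445 and 333, L-con 953, Lt 759.9 and 720.4, Mt3 573 and 753, Mt2 686 and 299, Mt1 985 and 273, Ht 74.5 and 130.2. The cells had Kupffer sums of 2348, 937 and 587 in F4/80+TAM and 87.7, 110.3 and 51.7 in CD11b+TAM. In F4/80+TAM 5 of 5 were called higher against Ht and 1 against Mt2, with 0 lower, and in CD11b+TAM 0 were called in either direction against Ht and 0 higher and 5 lower against Mt2, where 17.2% of all genes were higher and 25.2% lower in F4/80+TAM and 17.6% and 26.3% in CD11b+TAM. From con to Ht 0 of 5 Kupffer cell markers were called higher and 3 lower, beside 25.8% and 24.1% of all genes.

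Mmp14 (ENSMUSG00000000957), chr14:54431612-54445364 on the forward strand, had CPM of con 73.9 and 51.6, L-con 60.1, Lt 114 and 152, Mt3 152 and 161, Mt2 181 and 281, Mt1 218 and 312, Ht 338 and 312. The isolated cells read F4/80+TAM 297, 466 and 421 and CD11b+TAM 252, 261 and 415. Mmp14 was abundant in every sample, each metastasis sample stood above each con library, and the populations overlapped each other and Ht. Falling means ran F4/80+TAM, Ht, CD11b+TAM, Mt1, Mt2, Mt3, Lt, each within the spread of its neighbour, then con and L-con. From con to Lt Mmp14 rose by log2 fold change 1.09 (SE 0.30, adjusted p = 0.0396), a call lost without con 1 (adjusted p = 0.0647), con 2 (0.83, adjusted p = 0.236) or Lt 2 (0.85, adjusted p = 0.253), under total-count scaling (0.0665) with at least 10 counts in every library (0.0522) and with crossed replicate numbers (0.0616). From Lt to Ht it rose by log2 fold change 1.27 (SE 0.30, adjusted p = 0.00921), lost without Lt 1 (adjusted p = 0.0790) or Ht 1 (adjusted p = 0.0512). The rise of Mmp14 from con to Ht was log2 fold change 2.36 (SE 0.31, adjusted p = 2.9e-04) and kept its call without each library. F4/80+TAM against Mt2 reached log2 fold change 0.77 (SE 0.30, adjusted p = 0.0435), under the fold threshold, and was called without Mt2 2 (1.16, adjusted p = 0.0195). Against Ht F4/80+TAM were not called for Mmp14, log2 fold change 0.28 (SE 0.30, adjusted p = 0.452), and scaling to total counts turned the sign to -0.15. CD11b+TAM were not called against Mt2, log2 fold change 0.42 (SE 0.30, adjusted p = 0.247), or Ht, -0.07 (SE 0.29, adjusted p = 0.855). The populations were not called apart in Mmp14, log2 fold change 0.29 (SE 0.26, adjusted p = 0.626).

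Mmp19 (ENSMUSG00000025355) is at chr10:128790910-128800824 on the forward strand and overlaps Gm47093 and Tmem198b on the opposite strand. Its CPM were: con 58.6 and 74.1, L-con 78.5, Lt 56.4 and 36.7, Mt3 47.4 and 43.4, Mt2 38.7 and 13.1, Mt1 34.0 and 15.4, Ht 8.16 and 9.85. Isolated cells read F4/80+TAM 37.3, 22.8 and 23.5 and CD11b+TAM 39.4, 46.6 and 8.93. Mmp19 was highest in con and L-con and lowest in Ht, Mt2 and Mt1 were split between their 2 libraries, and CD11b+TAM 3 fell within the Ht range. By mean the order was L-con, con, Lt, Mt3, CD11b+TAM, F4/80+TAM, Mt2, Mt1, Ht, and con to Mt1 were within the spread of neighbours while Ht stood apart. Mmp19 was not called from con to Lt although the libraries did not overlap, log2 fold change -0.51 (SE 0.49, adjusted p = 0.507). It fell from Lt to Ht with log2 fold change -2.39 (SE 0.52, adjusted p = 0.00686), lost without Ht 1 (adjusted p = 0.0541), and from con to Ht with -2.90 (SE 0.52, adjusted p = 0.00121). F4/80+TAM held more Mmp19 than Ht, log2 fold change 1.63 (SE 0.59, adjusted p = 0.0323), a call lost without Ht 1 (adjusted p = 0.150), Ht 2 (0.0972) or F4/80+TAM 1 (0.0920) or under total-count scaling (0.0773). CD11b+TAM were higher than Ht by log2 fold change 1.82 (SE 0.60, adjusted p = 0.0189) with overlapping libraries, lost without Ht 1 (adjusted p = 0.109), Ht 2 (0.0704) or CD11b+TAM 2 (0.0613) or in the fit of only the groups compared (0.0598). Against Mt2 Mmp19 was not called in F4/80+TAM, log2 fold change 0.11 (SE 0.56, adjusted p = 0.879), or CD11b+TAM, 0.30 (SE 0.56, adjusted p = 0.669), with 1.09 and 1.28 without Mt2 1, nor between the populations, -0.23 (SE 0.52, adjusted p = 0.843).

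From Lt to Ht, where Mmp19 fell, 10 of 10 hepatocyte, 5 of 5 Kupffer cell and 5 of 8 stellate cell markers were also called lower and 0 higher, beside 20.2% of all genes lower. Of 10 endothelial markers 3 were called lower and 0 higher, which lies near that share. Of 8 tumor cell markers tested 4 were called lower and 2 higher, although the sum of that list did not separate con from Ht. The 10 hepatocyte markers, led by Alb, summed to CPM of con 204588 and 176984, L-con 165631, Lt 178599 and 98709.9, Mt3 138953 and 109844, Mt2 105004 and 28142, Mt1 101561 and 27426, Ht 3875 and 5705. In the isolated cells they came to 356, 207 and 207 in F4/80+TAM and 95.5, 78.0 and 238 in CD11b+TAM, with Cps1 at or under the floor in CD11b+TAM. Of these, from con to Lt 0 of 10 hepatocyte markers were called in either direction, and from Lt to Ht and con to Ht 0 were called higher and 10 lower, beside 20.2% and 24.1% of all genes lower. The 8 stellate cell markers, led by Ecm1, summed to 155 to 539 CPM in all samples, with 0 called higher and 6 lower from con to Ht, beside 24.1% of all genes lower, and Reln or Hand2 at or under the floor in each library of isolated cells. In isolated cells Ecm1 made up most of the stellate sum, with 355 of 376, 348 of 368 and 427 of 444 CPM in F4/80+TAM and 321 of 335, 382 of 394 and 171 of 179 in CD11b+TAM. Against Ht 2 stellate cell markers were called higher and 6 lower in F4/80+TAM (median -4.33) and 1 and 6 in CD11b+TAM (median -4.42), beside 18.5% and 21.1% and 18.8% and 22.4% of all genes. The 10 endothelial markers, led by Kdr in con and Cdh5 in Ht, summed to 48.2 to 429.9 CPM, with 0 called higher and 3 lower from con to Ht, a share near the 24.1% of all genes, 0 and 5 in F4/80+TAM against Ht and 0 and 9 in CD11b+TAM against Ht, beside the same shares as the stellate cell markers. Which of these cells carry Mmp19 was not tested.

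Timp1 (ENSMUSG00000001131), chrX:20870166-20874735 on the forward strand, lies inside Syn1 with no shared exon. Its CPM were: con 0.458 and 0, L-con 1.90, Lt 10.4 and 19.7, Mt3 11.6 and 15.1, Mt2 14.3 and 34.5, Mt1 16.5 and 35.1, Ht 26.4 and 28.3. Cells read F4/80+TAM 1.82, 2.11 and 2.86 and CD11b+TAM 2.66, 3.003 and 3.25. Timp1 was high in all metastasis samples, low in both populations and L-con, and at 5 and 0 counts in con, with no overlap of metastases with either population or con. In the falling order Ht, Mt1, Mt2, Lt, Mt3 neighbours did not differ beyond their spread, and CD11b+TAM overlapped F4/80+TAM. Without overlap Ht lay above Lt and Mt3, and Mt1 above Mt3. By counts the ratio of Lt to con was 68.9 (95% counting interval 29.3 to 213) and of Ht to con 122 (52.2 to 376). From con to Lt Timp1 rose by log2 fold change 6.04 (SE 0.89, adjusted p = 0.00301), or 5.01 without con 2. From con to Ht the rise was log2 fold change 6.88 (SE 0.88, adjusted p = 2.7e-04), or 5.86 without con 2. Without con 1 both Timp1 calls were kept (adjusted p = 0.0187 and 0.00175) against a con of 0 counts, for which no fold is given. Between Lt and Ht Timp1 was not called, log2 fold change 0.84 (SE 0.55, adjusted p = 0.240). It was lower than in Mt2 tissue in F4/80+TAM by log2 fold change -3.43 (SE 0.46, adjusted p = 2.3e-05) and in CD11b+TAM by -3.04 (SE 0.45, adjusted p = 5.2e-05), and without Mt2 2 the values were -2.62 and -2.24. Against Ht the Timp1 values were -3.59 (SE 0.46, adjusted p = 2.0e-05) in F4/80+TAM and -3.20 (SE 0.45, adjusted p = 4.0e-05) in CD11b+TAM. Between the populations Timp1 was not called, log2 fold change -0.44 (SE 0.29, adjusted p = 0.540).

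Timp2 (ENSMUSG00000017466) is at chr11:118301069-118355740 on the reverse strand, with CPM of con 25.3 and 18.5, L-con 37.1, Lt 78.8 and 101, Mt3 104 and 102, Mt2 152 and 212, Mt1 184 and 263, Ht 292 and 298. The cells read F4/80+TAM 177, 109.5 and 154 and CD11b+TAM 117, 149.7 and 103. Timp2 was above con in every other sample, stepped up from Lt to Ht without overlap, and overlapped between the populations. In falling order Ht stood apart from Mt1, and Mt1, Mt2, F4/80+TAM, CD11b+TAM, Mt3 and Lt were each within the spread of a neighbour, followed by L-con and con. Timp2 rose from con to Lt by log2 fold change 2.04 (SE 0.27, adjusted p = 0.00213) and from Lt to Ht by 1.70 (SE 0.26, adjusted p = 0.00311). The full step from con to Ht was log2 fold change 3.74 (SE 0.29, adjusted p = 9.0e-05), and all 3 Timp2 calls were kept without each library. CD11b+TAM held less than Ht, log2 fold change -1.25 (SE 0.25, adjusted p = 7.5e-04). F4/80+TAM were at the edge of the fold threshold for Timp2, log2 fold change -1.005 (SE 0.25, adjusted p = 0.00397), with -0.98 without Ht 1, -0.94 without Ht 2, -0.78 without F4/80+TAM 2 and -0.996 without F4/80+TAM 3, each short of the threshold, as were -0.997 with 3 Ht libraries and -0.95 with the replicate block. Against Mt2 Timp2 was not called in F4/80+TAM, log2 fold change -0.31 (SE 0.25, adjusted p = 0.312), or CD11b+TAM, -0.56 (SE 0.25, adjusted p = 0.0703), and the populations were not called apart, 0.20 (SE 0.22, adjusted p = 0.685).

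Timp3 (ENSMUSG00000020044), chr10:86300372-86349506 on the forward strand, shares exon bases with Syn3 on the opposite strand. CPM of Timp3 were: con 48.5 and 23.9, L-con 19.4, Lt 28.6 and 23.3, Mt3 21.2 and 23.1, Mt2 21.5 and 24.4, Mt1 19.5 and 35.0, Ht 18.0 and 20.9. Isolated cells read F4/80+TAM 2.37, 2.21 and 1.78 and CD11b+TAM 0.807, 0.465 and 0.116, the last from 17, 11 and 2 counts. Timp3 was highest in con 1 and lower in both Ht than in both con and both Lt samples, and tissue, F4/80+TAM and CD11b+TAM formed 3 falling tiers with no overlap. The tissue means fell in the order con, Mt1, Lt, Mt2, Mt3, L-con, Ht, within the spread of neighbours among the replicated groups up to Mt3. Timp3 was not called from con to Lt, log2 fold change -0.48 (SE 0.34, adjusted p = 0.381), with 0.12 without con 1. From Lt to Ht it was not called, log2 fold change -0.44 (SE 0.34, adjusted p = 0.317), and scaling to total counts turned the sign to 0.47. From con to Ht it was under the fold threshold, log2 fold change -0.92 (SE 0.34, adjusted p = 0.0400), with -1.35 without con 2 (adjusted p = 0.00836, called) and -0.31 without con 1 (adjusted p = 0.433), and scaling to total counts turned the sign to 0.28. Relative to the median of all genes the Timp3 change from con to Ht was -1.01. Timp3 was lower in F4/80+TAM than in Mt2 by log2 fold change -3.43 (SE 0.38, adjusted p = 4.1e-06) and than in Ht by -3.19 (SE 0.38, adjusted p = 1.1e-05). In CD11b+TAM it was lower than in Mt2 by log2 fold change -5.57 (SE 0.45, adjusted p = 2.1e-07), and the count ratio of Mt2 to CD11b+TAM was 48.0 (95% counting interval 33.4 to 71.6). Against Ht the drop of Timp3 in CD11b+TAM was log2 fold change -5.33 (SE 0.44, adjusted p = 4.2e-07), with a count ratio of Ht to CD11b+TAM of 39.2 (27.3 to 58.3). The populations did not overlap in Timp3 but were not called apart in the fit used, log2 fold change 2.10 (SE 0.55, adjusted p = 0.250), while DESeq2 (adjusted p = 0.0132) and the joint fit (0.0358) called the difference. Without 1 library the Timp3 difference between the populations was not called in any fit, with adjusted p from 0.115 to 0.635, and it was 2.72 without CD11b+TAM 1.

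**Figure D2:**
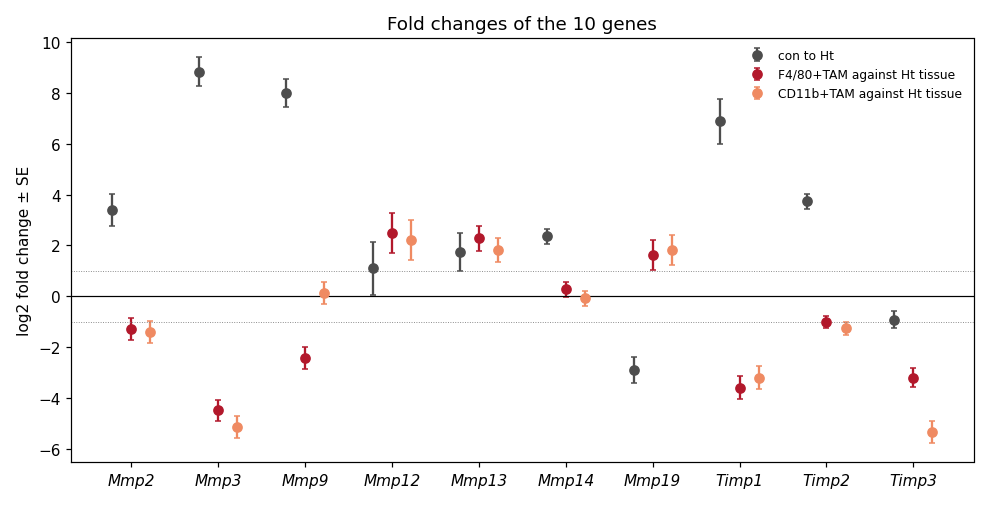
Log2 fold change of each member with its SE from con to Ht and in each isolated population against Ht tissue. Dotted lines mark the fold threshold.

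Counted over the members, 7 of 10 were called higher from con to Lt and 0 lower, where 12.4% of all 17187 genes tested were called higher and 0.256% lower (2133 and 44 genes). The 0 lower members came from a test with 4917 genes at unadjusted p under 0.05, and DESeq2, total-count scaling and the other settings also called 0 members lower from con to Lt. Without 1 library at a time 4 to 6 members were called higher, and 720 to 2262 of all genes higher and 4 to 22 lower. The higher members were Mmp2, Mmp3, Mmp9, Mmp13, Mmp14, Timp1 and Timp2. Their median log2 fold change over the 10 members was 2.20 against 0.10 over all genes. From Lt to Ht 3 members (Mmp9, Mmp14, Timp2) were called higher beside 11.7% of all genes, and 1 (Mmp19) lower beside 20.2%, with medians of 0.71 and -0.01. These shares of all genes depend on single libraries, since from Lt to Ht 2004 genes were higher and 3476 lower but 612 to 2468 higher and 2123 to 3493 lower without 1 library, and 2 to 3 members higher and 0 to 1 lower. From con to Ht 6 members (Mmp2, Mmp3, Mmp9, Mmp14, Timp1, Timp2) were called higher beside 25.8% of all genes, and 1 lower (Mmp19) beside 24.1%, with medians of 2.88 and 0.09, and without 1 library 3881 to 4194 of all genes were higher and 3597 to 3926 lower. Without con 1 the con to Ht count also holds Mmp13, and without con 2 the lower count also holds Timp3, so the members called lower ranged from 1 to 2. From con to Lt and from con to Ht the member medians were unchanged with Mmp3 held at its counting bound. They could not move, since Mmp3 lies above the median at either value, so this tests nothing. A share close to that of all genes, as for the members lower from Lt to Ht, is no result about the members as a list.

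Between F4/80+TAM and CD11b+TAM 0 of 10 members were called higher in F4/80+TAM and 0 lower (edgeR, quasi-likelihood), beside 0.00701% and 0.0701% of the 14263 genes tested (1 and 10 genes), with 1503 genes at unadjusted p under 0.05. DESeq2 called Timp3 higher and Mmp9 lower in F4/80+TAM, as did the joint fit of both tables, in which 95 of all genes were called higher and 74 lower. DESeq2 called 133 genes higher and 167 lower, and leaving out 1 library gave 0 to 40 higher and 0 to 96 lower. The member median was 0.20 beside -0.00 over all genes. A count of 0 for the other members therefore describes these 3 against 3 libraries and this test.

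Against Mt2 tissue F4/80+TAM had 2 members called higher (Mmp12, Mmp13) beside 17.2% of all 18407 genes and 4 lower (Mmp3, Mmp9, Timp1, Timp3) beside 25.2%. Without 1 library at a time 0 to 2 members were higher and 4 lower. CD11b+TAM against Mt2 had 0 members higher beside 17.6% and 3 lower (Mmp3, Timp1, Timp3) beside 26.3%. This 0 came from edgeR's quasi-likelihood test with 11260 genes at unadjusted p under 0.05, and DESeq2 called 2 members higher there, Mmp12 and Mmp13. The member medians were -0.58 in F4/80+TAM and -0.13 in CD11b+TAM, beside -0.12 and -0.08 over all genes. Against Ht tissue F4/80+TAM had 3 members higher (Mmp12, Mmp13, Mmp19) beside 18.5% of all genes and 6 lower (Mmp2, Mmp3, Mmp9, Timp1, Timp2, Timp3) beside 21.1%. CD11b+TAM against Ht had 3 higher (Mmp12, Mmp13, Mmp19) beside 18.8% and 5 lower (Mmp2, Mmp3, Timp1, Timp2, Timp3) beside 22.4%. The member medians against Ht were -1.14 and -0.66, beside 0 and 0.03 over all genes. Without 1 library at a time 1 to 3 members were higher than Ht in each population, and 4 to 6 lower in F4/80+TAM and 4 to 5 in CD11b+TAM. The comparisons with Mt2 share the Mt2 samples, and those with Ht share the Ht samples.

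Scaling to total counts instead of TMM moved the median log2 fold change of all genes from 0.10 to 0.40 from con to Lt, from -0.01 to 0.87 from Lt to Ht, from 0.09 to 1.28 from con to Ht, from 0 to -0.42 in F4/80+TAM against Ht and from 0.03 to -0.43 in CD11b+TAM against Ht. All genes called split 2004 higher to 3476 lower from Lt to Ht and 6216 to 2081 under total counts, and from con to Ht 4437 to 4139 and 8819 to 2250. In F4/80+TAM against Ht the split was 3414 to 3892 and 2178 to 5206, and in CD11b+TAM against Ht 3466 to 4128 and 2135 to 5488. Relative to the median of all genes the changes from con to Ht were 7.90 for Mmp9, 3.31 for Mmp2, 3.64 for Timp2, 2.26 for Mmp14 and -2.99 for Mmp19. Another scaling moves all genes of a comparison alike, so these relative values do not test the scaling. The relative Mmp14 change from con to Lt was 0.985.

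Summed over the 23 MMP genes of the tables, CPM per kb came to 47.3 ± 5.72 (SD, n = 2) in con, 151.9 ± 5.27 (SD, n = 2) in Ht, 103.3 ± 16.5 (SD, n = 3) in F4/80+TAM and 152.1 ± 10.7 (SD, n = 3) in CD11b+TAM. Summed over the 4 TIMP genes it was 10.3 ± 3.74 (SD, n = 2) in con, 108.8 ± 2.97 (SD, n = 2) in Ht, 40.5 ± 8.74 (SD, n = 3) in F4/80+TAM and 35.1 ± 6.06 (SD, n = 3) in CD11b+TAM. The ratio of MMP to TIMP sums was: con 3.34 and 6.70, L-con 4.01, Lt 2.33 and 1.87, Mt3 2.16 and 2.14, Mt2 1.88 and 1.48, Mt1 1.91 and 1.91, Ht 1.46 and 1.34. It was 1.77, 3.61 and 2.66 in F4/80+TAM and 4.40, 3.93 and 4.82 in CD11b+TAM. CD11b+TAM thus stood above F4/80+TAM and all metastases, and Ht was lowest. Con overlapped both populations, and F4/80+TAM overlapped Lt, Mt3, Mt2 and Mt1. The ratio was described and not tested. Mmp19 made up 38.3% and 40.8% of the MMP sum in con and 1.48% and 1.88% in Ht. Mmp14 made up 28.6% and 16.8% in con, 36.5% and 35.3% in Ht, 59.0%, 70.4% and 61.6% in F4/80+TAM and 28.9%, 26.6% and 47.8% in CD11b+TAM. Mmp9 made up 0.36% and 0.43% in con, 30.2% and 34.2% in Ht, 5.69%, 7.05% and 12.8% in F4/80+TAM and 31.8%, 44.1% and 28.5% in CD11b+TAM. Timp2 was the most abundant TIMP in all 19 samples, at 50.1% to 70.1% of the TIMP sum in tissue and 87.8% to 95.1% in isolated cells. Timp1 held 3.98% and 0% of it in con, 32.9% and 43.6% in Lt and 27.8% and 28.8% in Ht, and Timp3 46.0% and 38.2% in con and 2.07% and 2.31% in Ht.

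**Figure D3:**
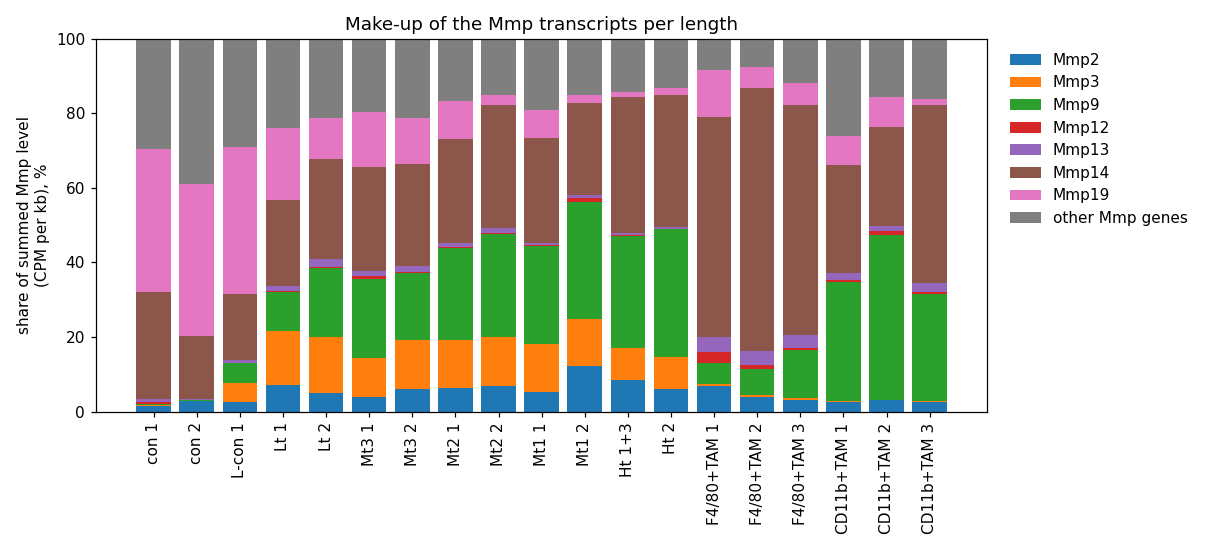
Share of each MMP member in the summed CPM per kb of the 23 MMP genes in each sample. MMP genes outside the members are pooled.

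Of 18 other MMP and inhibitor genes 12 were tested against con, and Mmp1a, Mmp16, Mmp20, Mmp21, Mmp24 and Timp4 were not tested. Higher calls numbered 6 and lower 0 from con to Lt, and from Lt to Ht 2 and 1, from con to Ht 7 and 1, and between the populations 0 and 0 of 7 tested, beside 12.4% and 0.256% of all genes from con to Lt, 11.7% and 20.2% from Lt to Ht, 25.8% and 24.1% from con to Ht and 0.00701% and 0.0701% between the populations. The gene lower from con to Ht was Mmp15, log2 fold change -3.27 (SE 0.53, adjusted p = 7.2e-04), with a mean of 15.1 CPM per kb in con. In F4/80+TAM 3 of the list were called higher and 9 lower against Mt2 and 3 and 9 against Ht, and in CD11b+TAM 2 and 9 against each. All genes stood there at 17.2% higher and 25.2% lower, 18.5% and 21.1%, 17.6% and 26.3%, and 18.8% and 22.4%, so the higher counts lie near the share of all genes. Mmp10, in the same cluster as Mmp3, had 0 counts in con, 0.895 and 4.80 CPM in Lt and 4.54 and 4.50 in Ht, and over the pooled group was at least 22.2-fold higher in Lt and at least 34.0-fold higher in Ht. Mmp8, a neutrophil marker, had 4.09, 5.40 and 20.9 CPM in F4/80+TAM and 79.3, 50.1 and 47.8 in CD11b+TAM, and against Ht it was higher by 3.58 and 6.12. With genes at their counting bound the list median went from 2.49 to 2.30 from con to Lt and from 3.44 to 2.71 from con to Ht.

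The list of MMP activation and the plasmin system, with 15 genes, had 6 called higher and 0 lower from con to Lt, 3 and 5 from Lt to Ht, 6 and 6 from con to Ht, 2 and 8 in each population against Mt2, 3 and 8 in F4/80+TAM and 2 and 8 in CD11b+TAM against Ht, and 0 and 0 of 12 tested between the populations. All genes tested stood at 12.4% higher and 0.256% lower from con to Lt, 11.7% and 20.2% from Lt to Ht and 25.8% and 24.1% from con to Ht. Against Mt2 the shares were 17.2% and 25.2% in F4/80+TAM and 17.6% and 26.3% in CD11b+TAM, and against Ht 18.5% and 21.1% and 18.8% and 22.4%. Between the populations they were 0.00701% and 0.0701%, so counts of 0 there lie near the share of all genes. The same shares apply to the ADAM and ADAMTS counts. Plat, Plaur and Plau rose and Plg fell from con to Ht, by log2 fold changes of 7.26, 5.09, 3.73 and -5.32. Of 16 ADAM and ADAMTS genes 8 were called higher and 0 lower from con to Lt, 8 and 0 from Lt to Ht, 14 and 0 from con to Ht, 3 and 10 in F4/80+TAM against Mt2, 2 and 10 in CD11b+TAM against Mt2 and in each population against Ht, and 0 and 0 of 11 between the populations. The remaining marker lists gave, from con to Ht, 6 of 6 monocyte markers higher, 2 of 6 dendritic cell markers and 3 of 6 T and NK cell markers higher, beside 25.8% of all genes higher, so the dendritic cell count lies near the share of all genes. Of 8 tumor cell markers tested from con to Ht 3 were called higher and 3 lower, beside 24.1% of all genes lower. The higher ones were Lgals7, Stra6 and Grem1, which entered the list from earlier results of these data. The count of higher tumor cell markers is therefore not set against all genes. Summed CPM of the 10 tumor cell markers were 582 and 535 in con, 545 and 619 in Ht, 29.7, 39.7 and 45.1 in F4/80+TAM and 36.1, 32.5 and 28.5 in CD11b+TAM, with Krt20 and Cdx2 at or under the floor in nearly all samples, Krt8 leading in con and Stra6 in Ht. Krt8 alone came to 301 and 312 CPM in con. The sum thus overlapped between con and Ht and is no measure of tumor content here. The 6 monocyte markers summed to 12.8 and 9.74 in con, 845 and 839 in Ht and 1347, 1962 and 1966 in F4/80+TAM and 1854, 2107 and 3179 in CD11b+TAM, led by Plac8 in con, Vcan in metastases and Ccr2 in most isolates. In Ht Vcan alone came to 666 and 609 CPM, most of the sum. Against Mt2 and against Ht 5 of the 6 were called higher and 1 lower in each population, beside the shares given above. The 6 dendritic cell markers summed to 14.9 to 33.4 CPM in tissue, led by Zbtb46, 17.6, 32.8 and 24.5 in F4/80+TAM and 92.0, 64.7 and 153 in CD11b+TAM. Of them 0 were called higher and 1 lower in F4/80+TAM against CD11b+TAM, beside 0.00701% and 0.0701% of all genes. The 6 T and NK cell markers, led mostly by Cd4 or Cd8a, summed to 2.85 to 24.8 CPM in all samples.

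Across the 19 samples, as description only, the genes whose levels ran most like each member among 13076 compared were, by Pearson's r, Glipr2 (0.965) for Mmp9, Hhat (0.926) for Mmp2, Prl2c2 (0.973) for Mmp3, Pvr (0.880) for Mmp12 and Ly6c2 (0.949) for Mmp13. They were Clip2 (0.980) for Mmp14, Slco2b1 (0.959) for Mmp19, Tubb3 (0.987) for Timp1, Prmt2 (0.990) for Timp2 and Ttll7 (0.985) for Timp3. Among the members Mmp3 and Timp1 ran together most closely (r = 0.936, n = 19), followed by Mmp2 and Timp2 (r = 0.889, n = 19), and Mmp14 and Mmp19 ran opposite (r = -0.783, n = 19).

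Promoter windows of 300 bases from RefSeq GRCm38.p6 were read for the letters TGANTCA, which read the same on both strands, and TATAAA on either strand. TGANTCA takes in the form bound by AP-1, which has C or G in the middle. It is wider than that form, since N also admits A and T, as in the TGAATCA of Mmp20. TGANTCA stands in 7.81% of 32851 promoter windows (2565) and TATAAA in 13.62% (4473). The windows of Mmp3, Mmp13 and 1 of the 2 of Mmp12 hold both, as do that of Mmp10 and those of 4 more MMP genes on chromosome 9, in 1 of them in only 1 of 2 windows, and those of Mmp14, Timp1, Timp2 and Timp3 and the other of Mmp12 do not contain these letters. Mmp2, Mmp9 and Mmp19 have no entry in the promoter table. Printed are the windows with both motifs of the members Mmp3, Mmp12 and Mmp13 and of Mmp10, which lies in the same cluster and was lowest in con as Mmp3 was, and capitals mark the motif letters. They are all on the forward strand, at chr9:7445572-7445871 for Mmp3, chr9:7502092-7502391 for Mmp10, chr9:7347124-7347423 for Mmp12 and chr9:7272264-7272563 for Mmp13. A match is a description of letters, and binding was not measured.
Mmp3: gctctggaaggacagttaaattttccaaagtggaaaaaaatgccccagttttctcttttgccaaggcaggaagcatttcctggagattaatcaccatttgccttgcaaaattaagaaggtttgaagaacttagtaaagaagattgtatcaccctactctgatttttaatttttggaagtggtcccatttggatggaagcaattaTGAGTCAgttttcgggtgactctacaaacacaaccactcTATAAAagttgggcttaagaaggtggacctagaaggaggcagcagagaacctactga
Mmp10: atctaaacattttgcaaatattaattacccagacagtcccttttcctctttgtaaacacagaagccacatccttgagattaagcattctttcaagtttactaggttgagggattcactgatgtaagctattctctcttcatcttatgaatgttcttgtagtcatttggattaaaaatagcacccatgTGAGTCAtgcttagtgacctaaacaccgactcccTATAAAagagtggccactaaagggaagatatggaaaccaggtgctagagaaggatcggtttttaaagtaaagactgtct
Mmp12: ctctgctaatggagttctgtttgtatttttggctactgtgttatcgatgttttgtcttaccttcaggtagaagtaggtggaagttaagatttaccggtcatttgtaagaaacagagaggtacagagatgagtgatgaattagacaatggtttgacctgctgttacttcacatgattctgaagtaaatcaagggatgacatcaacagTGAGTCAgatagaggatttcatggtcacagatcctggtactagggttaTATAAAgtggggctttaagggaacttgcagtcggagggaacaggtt
Mmp13: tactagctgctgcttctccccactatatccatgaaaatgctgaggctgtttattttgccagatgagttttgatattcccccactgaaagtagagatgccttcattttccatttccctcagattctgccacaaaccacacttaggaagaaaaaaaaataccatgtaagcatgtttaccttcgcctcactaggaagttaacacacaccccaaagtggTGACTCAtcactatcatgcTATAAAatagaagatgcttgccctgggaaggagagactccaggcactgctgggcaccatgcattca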

How the data were processed

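Bulk RNA-Seq read counts per gene were deposited by the authors, made per their processing notes with CASAVA, HISAT2 2.0.5 and featureCounts 1.5.0-p3 on GRCm38, in 1 table of 14 tissue libraries and 1 of 6 libraries of isolated cells, joined by Ensembl identifier because the table of cells carries no gene names. Ht libraries 1 and 3 were summed because the methods call them identical, although their counts differed by a chi-square of 27.63 per degree of freedom (26.67 between libraries 1 and 2, 12.14 between 2 and 3). If libraries 2 and 3 were the repeat, the 2 Ht samples would share material and would not be independent. Labels give male mice for tissue and no sex for cells, and the methods give female mice.

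Genes passed filterByExpr and were scaled by TMM, fitted in edgeR 4.0.16 (R 4.3.3) with the quasi-likelihood test and Benjamini-Hochberg adjustment: 13 tissue samples (17187 genes), 6 cell libraries (14263) and all 19 (18407) for cells against tissue. Levels use the scale of all 19. SE is the log2 fold change over the square root of F. The script was tested on simulated counts. Floors and counting intervals cover counting error only, as the reads carry no molecular identifiers. Alternatives were DESeq2 1.42.0, total-count scaling, no filter, at least 10 counts in every library, a replicate block, no fold threshold, only the groups compared, the joint fit, 3 separate Ht libraries and leaving out each library. L-con, Mt3 and Mt1 entered fits but no comparison.

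The members and the lists (other MMP and inhibitor genes, MMP activation and plasmin system, ADAM and ADAMTS proteases, and markers of fibroblasts, stellate cells, endothelium, hepatocytes, macrophages, Kupffer cells, monocytes, neutrophils, tumor cells, dendritic cells, and T and NK cells) were chosen with earlier results of these data known, and Lgals7, Stra6 and Grem1 entered the tumor cell list from them. Genes named besides the members are those of the 3 pathway lists called from con to Ht or in cells against Ht, without overlap of groups and with a mean log2 CPM of at least 1, at most 4 per direction and list by fold change, MMP genes near 0, marker genes that lead a list or stay at the floor, and the gene most like each member. Positions were taken from GENCODE M21 and promoter sequences from RefSeq GRCm38.p6.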

Additional observations from a re-analysis of the deposited data

Results flagged for a closer look

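The L-con library, tumor-free liver remote from tumor at 12 dpi, is a single sample used in no comparison, and 7 members stood above both con libraries in it. In CPM, with con 1 and con 2 after it, Mmp9 read 10.45 (0.549, 0.776), Mmp3 5.182 (0.0915, 0), Timp1 1.90 (0.458, 0), Timp2 37.051 (25.3, 18.5), Mmp2 4.923 (2.20, 4.74), Mmp13 1.123 (1.10, 0.172) and Mmp19 78.507 (58.6, 74.1). Timp3 stood below both (19.4 against 48.5, 23.9), and Mmp12 (0.345) and Mmp14 (60.1) lay between them. For Mmp2, Mmp13 and Mmp19 the value lay close to the higher con library. With 1 library these differences were not tested. Marker sums in the same library, with con 1 and con 2 after it, were 91.9 (12.8, 9.74) for monocytes, 953 (445, 333) for Kupffer cells, 696 (417, 297) for fibroblasts and 630.3 (582, 535) for tumor cells. Macrophage (987 against 640.1, 427) and neutrophil sums (5.61 against 4.67, 2.85) were also above both. Hepatocyte (165631 against 204588, 176984) and stellate cell sums (405 against 539, 445) lay below both. Endothelial, dendritic cell, and T and NK cell sums lay between the con libraries. Krt8 led the tumor cell sum in each of these libraries, at 359 CPM in L-con and 301 and 312 in con. The tumor cell list genes Lgals7, Stra6 and Grem1 were over the floor in L-con and at or under it in both con libraries.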

How the results depend on the processing

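With 2 or 3 samples per group the calls near the threshold move with single libraries. Depth leaves some members at few counts, such as Mmp3, Mmp9, Mmp12, Mmp13 and Timp1 in con and Mmp3 and Timp3 in CD11b+TAM. Where a group is left with 1 sample it is assumed to vary like the other groups. Of 599 member fold changes under other settings 554 kept direction and side of the threshold, 14 became weaker, 22 stronger and 9 reversed. Without 1 library, 325 of 380 kept both, 35 became weaker, 4 stronger and 16 reversed. The cause was not tested unless stated.

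Under total-count scaling the reversed values were 0.85 for Mmp3 and 0.47 for Timp3 from Lt to Ht, 0.28 for Timp3 from con to Ht, -0.15 for Mmp14 in F4/80+TAM against Ht and -0.32 for Mmp9 in CD11b+TAM against Ht, and 1 member was called higher in F4/80+TAM against Mt2, 1 in F4/80+TAM against Ht and 1 in CD11b+TAM against Ht. Mmp3 from Lt to Ht reversed to 0.0589 in DESeq2 and 0.0880 with no filter. For F4/80+TAM against CD11b+TAM, DESeq2 called 1 member higher and 1 lower, the joint fit 1 and 1, and no filter 1 lower. In CD11b+TAM against Mt2, DESeq2 called 2 members higher, no filter 2 and the fit of only the groups compared 1. With no fold threshold 2 members were lower from con to Ht. With at least 10 counts in every library fewer members are tested by construction, and the calls were 1 higher from con to Lt, 3 higher from con to Ht, 0 higher and 0 lower in F4/80+TAM against Mt2, 0 lower in CD11b+TAM against Mt2, and 1 higher and 2 lower in each population against Ht. For F4/80+TAM against CD11b+TAM the fit of only the groups compared is the fit used.

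With the replicate number as a replicate block, F4/80+TAM against CD11b+TAM called 1 member lower and 78 of all genes (11 without it), Mmp19 read 0.0117 there, and Mmp9 read -0.0179 in CD11b+TAM against Ht. The labels do not say that numbers pair samples. The correlations of like-numbered F4/80+TAM and CD11b+TAM residuals were -0.043, -0.130 and 0.010, so not every sample ran best with its own number. For con and Lt the correlation was -0.149, and a block with crossed numbers, chosen after seeing the data, called 1956 genes where the block with numbers as given called 2337 and the fit used 2177.

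Without 1 library, members called ranged from 4 to 6 higher from con to Lt, 1 to 2 lower from con to Ht, 0 to 1 lower from Lt to Ht, 0 to 1 lower in F4/80+TAM against CD11b+TAM, 0 to 2 higher in F4/80+TAM against Mt2, and 1 to 3 higher in each population against Ht. The fold changes that reversed ranged, from con to Lt, from -0.35 to 2.79 for Mmp12 and -0.92 to 0.12 for Timp3. That 2.79 is a fold over con 2 alone, at 2 counts and under the floor. From Lt to Ht the range was -0.14 to 0.0949 for Mmp3. In F4/80+TAM against CD11b+TAM the ranges were -0.15 to 0.23 for Mmp2, -0.38 to 0.60 for Mmp12 and -0.67 to 0.15 for Mmp19. Against Mt2 Mmp19 ranged from -0.43 to 1.09 in F4/80+TAM and -0.25 to 1.28 in CD11b+TAM. In CD11b+TAM against Ht the ranges were -0.34 to 0.0911 for Mmp14 and -0.12 to 0.29 for Mmp9.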
